A study of Arabidopsis thaliana with 10 samples.

Results

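A small set of 6 genes was lower in triploid than in diploid seeds of *Arabidopsis thaliana* and stayed low when *ADM*, *SUVH7* or *PEG2* was mutated in the pollen parent. The 6 genes encode a SAUR-like auxin-responsive protein (AT1G19830, also named *SAUR54*), a receptor-like kinase (*RKL1*, AT1G48480), the precursor of an elicitor peptide (*PROPEP6*, AT2G22000), a formin (AT2G43800), a leucine-rich repeat protein (AT4G18670) and a protein annotated as a glutamate dehydrogenase (AT4G24110). They were chosen by their measured expression, and are 6 of the 33602 genes of the table. The mean RPKM of each cross, with 0.1 added, had to be at least 5.1 in diploid seeds and at most 0.25 times the diploid value in triploid seeds. The mean of each of the 3 mutant crosses had to lie between 25% below and 33% above that of triploid seeds. RPKM is the number of reads per kilobase of a gene, scaled to the size of the library, and all ratios below are ratios of group means with 0.1 added. Since the choice used the means of all 5 crosses, the levels of the 6 genes describe the choice and were not tested.

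RNA was sequenced from seeds of 20 siliques per library at 6 days after pollination (DAP), in 5 crosses with 2 libraries each. In all crosses the mother was a wild-type L*er* plant, and the pollen parent was in the Col background. For triploid *adm-2*, triploid *suvh7-1* and triploid *peg2* seeds the pollen parent carried the named mutation together with *osd1*. Triploid seeds (3n) came from *osd1* pollen alone and diploid seeds (2n) from wild-type Col pollen. The *osd1* mutation omits the second meiotic division, so that pollen is unreduced and carries an additional paternal genome. It was present in the pollen parents of all 4 triploid crosses and was brought into Col from the Nossen accession by backcrossing, and each *PEG* (paternally expressed gene) was represented by a single insertion allele. Nothing in the labels says that the duplicates came from separate plants, so their spread may be partly technical.

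In seeds with an excess of paternal genomes the endosperm, the tissue that feeds the embryo, cellularizes late or not at all, and embryo growth stops. *ADM*, *SUVH7* and *PEG2* are active from the paternal allele in the endosperm, and their loss in the pollen parent was studied as a way to overcome the failure of triploid seeds. SAUR proteins respond to auxin and several promote cell expansion, receptor-like kinases relay signals across the plasma membrane, elicitor peptides are released from precursors and bind the receptors PEPR1 and PEPR2 in defence, formins build actin filaments, and glutamate dehydrogenases are enzymes of nitrogen metabolism. In RNA of whole seeds, fewer cells of a type and less RNA per cell cannot be told apart.

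The promoters of the 6 genes were read from the TAIR10.1 genome with the RefSeq annotation. Those of 3 genes are shown because they hold repeated or seed-related motifs. The 250 bases before the start of AT2G43800 (chr2:18145189-18145438, plus strand) and of AT4G18670 (chr4:10278795-10279044, minus strand) each hold 3 copies of AATNATT, a core of sites for HD-ZIP class I and II factors, in capitals. Those of AT4G24110 (chr4:12520899-12521148, minus strand) hold the RY repeat CATGCA, in capitals, to which B3 factors of seed maturation bind.
AT2G43800: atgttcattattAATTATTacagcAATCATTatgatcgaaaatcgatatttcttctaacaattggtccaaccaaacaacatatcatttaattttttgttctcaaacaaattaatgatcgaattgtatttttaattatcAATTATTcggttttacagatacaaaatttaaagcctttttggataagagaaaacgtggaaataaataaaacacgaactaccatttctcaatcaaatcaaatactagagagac
AT4G18670: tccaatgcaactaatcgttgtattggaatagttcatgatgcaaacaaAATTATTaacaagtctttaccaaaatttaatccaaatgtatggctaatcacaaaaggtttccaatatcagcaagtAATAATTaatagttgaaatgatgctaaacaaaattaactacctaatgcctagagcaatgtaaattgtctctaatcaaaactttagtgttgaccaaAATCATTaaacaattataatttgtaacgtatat
AT4G24110: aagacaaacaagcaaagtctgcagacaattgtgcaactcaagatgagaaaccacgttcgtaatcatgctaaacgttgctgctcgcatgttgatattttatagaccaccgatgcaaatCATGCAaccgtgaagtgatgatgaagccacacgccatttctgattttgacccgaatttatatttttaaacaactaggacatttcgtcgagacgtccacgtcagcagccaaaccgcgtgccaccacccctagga

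Between 250 bases before and 50 bases after the start, AATNATT, which is its own reverse complement, occurred in 2 of the 6 promoters, in 37.0% of the promoters of genes lowered in triploid seeds and in 34.0% of 26711 promoters. In AT2G43800 the copies began at -238, -226 and -112 from the start, and in AT4G18670 at -203, -128 and -33. The RY repeat occurred in 1 of the 6, at -133 in AT4G24110, in 20.2% of promoters of lowered genes and in 9.78% of all. The W-box core TTGAC occurred in 4 of the 6, at -127 in AT1G19830, -83 in *RKL1*, -41 in AT4G18670 and -88 in AT4G24110, in 42.6% of promoters of lowered genes and in 50.5% of all. The ABRE core ACGTG, bound by bZIP factors of the abscisic acid response, was in 2 of the 6, at -60 in AT2G43800 and at -199 and -38 in AT4G24110, against 26.9% of all. The L1 box, searched as TAAATGNA, was in *PROPEP6* alone, at -136, against 11.4% of all. The G-box CACGTG, which contains the ABRE core, the prolamin box TGTAAAG, the GCN4 motif TGAGTCA, the evening element AAAATATCT, the site II motif TGGGCC, the telo-box AAACCCTA and the CArG box were in 0 of the 6, against 7.79%, 5.22%, 3.44%, 2.86%, 15.7%, 6.17% and 3.08% of all promoters, in that order. Both strands were searched, and 484 of the 496 lowered genes had a promoter in the set. No motif was shared by all 6 genes. The GC content of the 250 bases had a median of 26.4% over the 6 genes, between 19.6% and 44.4%, against a median of 31.2% over all promoters.

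Over the 6 genes, the lowest diploid library had 2.71 times (*RKL1*) to 4.06 times (AT1G19830) the RPKM of the highest of the 8 triploid libraries. The mean in triploid seeds was 17.5% to 24.9% of that in diploid seeds. In triploid *adm-2* seeds it was 18.0% to 30.5%, in triploid *suvh7-1* seeds 20.6% to 31.6% and in triploid *peg2* seeds 14.6% to 23.2% of the diploid mean. Both diploid libraries lay above all 8 triploid libraries for 38% of the 13451 genes at or above the level limit in diploid seeds, and 3.69% of them (496 genes) had a ratio of triploid to diploid of at most 0.25. For the 6 genes both followed from, or were favoured by, how they were chosen.

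**Figure D1:**
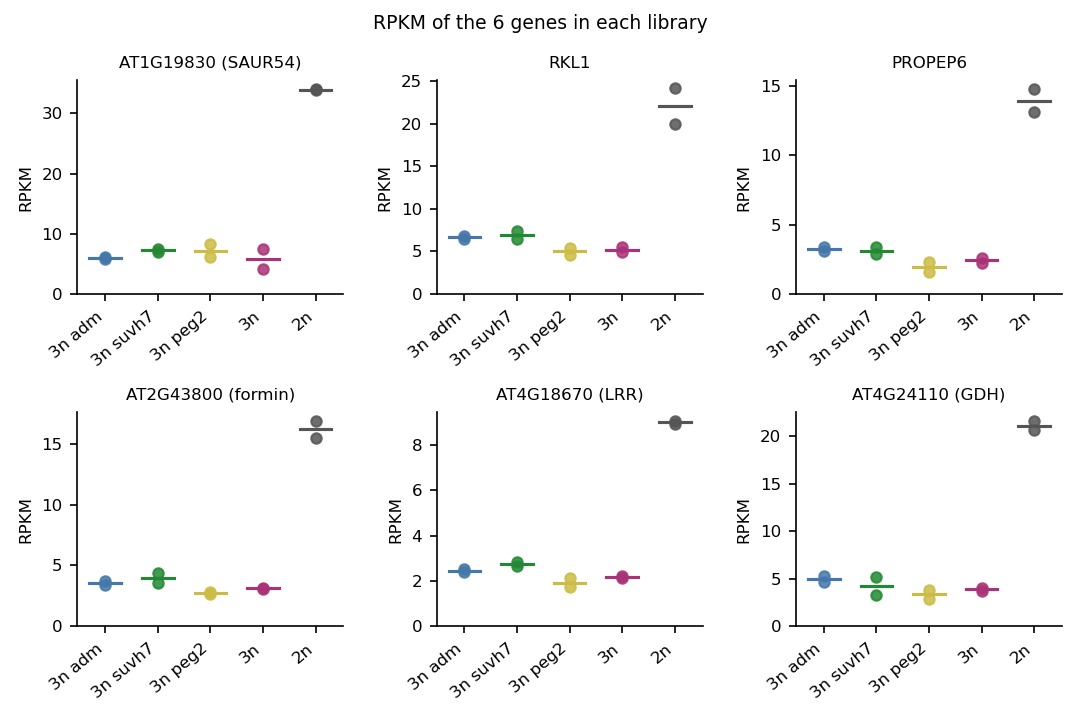
RPKM of the 6 genes in each library (vertical axis, linear, from 0) for the 3 triploid mutant crosses, triploid seeds (3n) and diploid seeds (2n). Points are libraries and lines are means of 2 libraries, and in every panel both diploid points lie above all 8 triploid points.

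*RKL1* encodes a kinase with extracellular leucine-rich repeats (chromosome 1, 17918207 to 17921116, plus strand, 2 exons). Its values were 6.84 and 6.46 RPKM in triploid *adm-2* seeds, 6.45 and 7.36 in triploid *suvh7-1* seeds, 4.63 and 5.45 in triploid *peg2* seeds, 5.47 and 4.99 in triploid seeds and 24.2 and 19.9 in diploid seeds. Both *adm-2* and both *suvh7-1* libraries were above both triploid libraries, while those of *peg2* overlapped with them. The mean was 5.23 ± 0.340 RPKM in triploid seeds against 22.1 ± 2.99 RPKM in diploid seeds (SD, n = 2 each), a log2 ratio of -2.06. Relative to triploid seeds it was 1.27 times as high in *adm-2*, 1.32 in *suvh7-1* and 0.965 in *peg2*. The value in *suvh7-1* lies just under the upper bound, 33% above triploid, and *RKL1* was the gene with the widest gap between diploid replicates, 0.28 on the log2 scale.

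*PROPEP6* encodes a 104-residue precursor of an elicitor peptide (chromosome 2, 9362113 to 9363203, plus strand, 2 exons). It had 3.42 and 3.07 RPKM in triploid *adm-2* seeds, 2.89 and 3.37 in triploid *suvh7-1* seeds, 1.61 and 2.28 in triploid *peg2* seeds, 2.62 and 2.25 in triploid seeds and 14.8 and 13.1 in diploid seeds. The order was that of *RKL1*, with both *adm-2* and both *suvh7-1* libraries above, and the *peg2* libraries overlapping with, the triploid ones. The mean was 2.44 ± 0.262 RPKM in triploid seeds against 13.9 ± 1.19 RPKM in diploid seeds (SD, n = 2 each), a log2 ratio of -2.47. The ratios to triploid seeds were 1.32 in *adm-2*, 1.27 in *suvh7-1* and 0.806 in *peg2*, the lowest *peg2* ratio of the 6. The gene overlaps 2 genes on the opposite strand, an antisense RNA (AT2G07485, 309 bases, not part of the table) and the last 95 bases of *RKP* (AT2G22010). The strand setting of the counting is not given in the sources used here, so reads from the overlaps cannot be assigned with certainty. *RKP* averaged 8.67 RPKM in triploid and 6.80 RPKM in diploid seeds.

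AT2G43800 encodes a formin of 894 residues (chromosome 2, 18145439 to 18149031, plus strand, 4 exons), the first promoter shown above. Its values were 3.41 and 3.75 RPKM in triploid *adm-2* seeds, 3.59 and 4.35 in triploid *suvh7-1* seeds, 2.68 and 2.78 in triploid *peg2* seeds, 3.18 and 3.08 in triploid seeds and 16.9 and 15.5 in diploid seeds. Both libraries of *adm-2* and of *suvh7-1* were above, and both of *peg2* below, the triploid libraries. AT2G43800 was the only gene of the 6 with no overlap in any mutant. Its triploid libraries also had the smallest gap of the 6 genes relative to their mean, which leaves less room for overlap. How many other genes lie apart in every mutant was not counted. The mean was 3.13 ± 0.0664 RPKM in triploid seeds against 16.2 ± 0.985 RPKM in diploid seeds (SD, n = 2 each), a log2 ratio of -2.33. The ratios to triploid seeds were 1.14 in *adm-2*, 1.26 in *suvh7-1* and 0.877 in *peg2*.

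AT4G18670 encodes a leucine-rich repeat family protein of 857 residues (chromosome 4, 10275462 to 10278794, minus strand, 1 exon). It had 2.51 and 2.38 RPKM in triploid *adm-2* seeds, 2.66 and 2.85 in triploid *suvh7-1* seeds, 1.74 and 2.13 in triploid *peg2* seeds, 2.22 and 2.12 in triploid seeds and 8.94 and 9.09 in diploid seeds. Here too both *adm-2* and both *suvh7-1* libraries were above the triploid libraries and *peg2* overlapped with them. The mean was 2.17 ± 0.0671 RPKM in triploid seeds against 9.02 ± 0.102 RPKM in diploid seeds (SD, n = 2 each), a log2 ratio of -2.01, and the ratio of 0.249 lies just inside the limit of 0.25. The ratios to triploid seeds were 1.12 in *adm-2*, 1.26 in *suvh7-1* and 0.896 in *peg2*.

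AT4G24110 is annotated as an NADP-specific glutamate dehydrogenase, an enzyme that interconverts glutamate and 2-oxoglutarate, and its predicted protein has 250 residues (chromosome 4, 12519907 to 12520898, minus strand, 1 exon). Its values were 5.30 and 4.71 RPKM in triploid *adm-2* seeds, 5.19 and 3.33 in triploid *suvh7-1* seeds, 3.85 and 2.91 in triploid *peg2* seeds, 4.04 and 3.75 in triploid seeds and 21.6 and 20.6 in diploid seeds. Only the *adm-2* libraries lay apart from the triploid ones, and those of *suvh7-1* spanned them with a gap of 43.9% of their mean. The mean was 3.90 ± 0.206 RPKM in triploid seeds against 21.1 ± 0.680 RPKM in diploid seeds (SD, n = 2 each), a log2 ratio of -2.41. The ratios to triploid seeds were 1.28 in *adm-2*, 1.09 in *suvh7-1* and 0.870 in *peg2*.

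AT1G19830 (*SAUR54*) encodes a SAUR-like protein of 117 residues (chromosome 1, 6852116 to 6852945, plus strand, 1 exon). It had 6.21 and 5.81 RPKM in triploid *adm-2* seeds, 7.50 and 7.01 in triploid *suvh7-1* seeds, 8.33 and 6.07 in triploid *peg2* seeds, 4.19 and 7.49 in triploid seeds and 33.8 and 34.0 in diploid seeds. The triploid libraries differed by 56.6% of their mean, and every mutant overlapped with them. The mean was 5.84 ± 2.33 RPKM in triploid seeds against 33.9 ± 0.163 RPKM in diploid seeds (SD, n = 2 each), a log2 ratio of -2.52, the lowest of the 6. The ratios to triploid seeds were 1.03 in *adm-2*, 1.24 in *suvh7-1* and 1.23 in *peg2*.

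**Figure D2:**
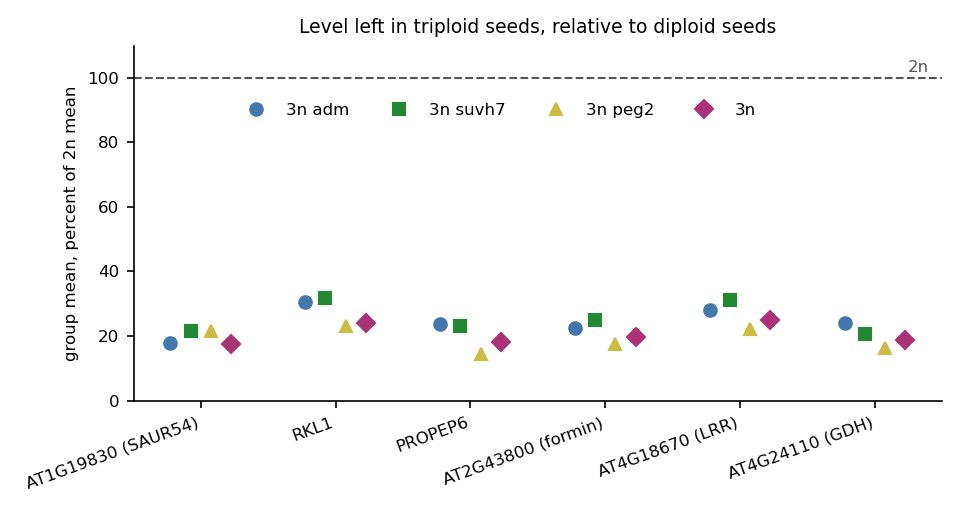
Mean of each triploid group as a percent of the diploid mean, with 0.1 RPKM added to each mean (vertical axis, from 0; the dashed line is the diploid level). Points of the 4 triploid groups lie between 14.6% and 31.6% for all 6 genes, and *adm-2* or *suvh7-1* is the highest of the 4 in each.

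The description "restored by no mutant" thus holds within the bounds of 25% below and 33% above triploid seeds, but 5 of the 6 genes had both *adm-2* libraries and 4 had both *suvh7-1* libraries above both triploid libraries. The same was found for 44% of the 13451 genes past the level limit in *adm-2* and for 24.8% in *suvh7-1*, and for 474 of the 496 lowered genes (95.6%) in each of these mutants. In *peg2* 1 of the 6 genes had both libraries below the triploid ones, against 17.8% of the genes past the level limit and 13.3% of the lowered genes. The medians over the 6 genes were 1.20 in *adm-2*, 1.26 in *suvh7-1* and 0.886 in *peg2*, against 1.06, 0.990 and 0.990 over the 13451 genes. The bounds confined each ratio to between 25% below and 33% above triploid seeds, and the medians and counts are given as a description. As background, limma (adjusted p under 0.05 and log2 fold change past 1) called 9.94% of the 26601 genes tested lower and 9.53% higher in triploid than in diploid seeds. The 6 genes are among those called lower, which restates how they were chosen. In the mutants 2.67% of genes were called higher and 0.722% lower in *adm-2*, 2.15% and 2.82% in *suvh7-1*, and 0.0677% and 0.139% in *peg2* than in triploid seeds. In *adm-2* these were 709 genes higher and 192 lower, and 543 higher and 272 lower after rescaling with size factors. The bounds leave no room for a log2 fold change past 1 in a mutant, so that the count of 0 of the 6 genes called there was fixed by the choice.

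Most genes lowered in triploid seeds lay outside the bounds in *adm-2* and *suvh7-1*. Of the 496 lowered genes, 448 (90.3%) were more than 33% above triploid seeds in *adm-2*, 465 (93.8%) in *suvh7-1* and 65 (13.1%) in *peg2*, against 12.2%, 8.19% and 1.37% of the 13451 genes past the level limit. In *peg2*, 409 (82.5%) were within the bounds and 22 below them. The most frequent pattern, in 347 genes, was a mean above the bounds in *adm-2* and *suvh7-1* and within them in *peg2*, and 63 genes were above them in all 3 mutants. Within the bounds were 45 genes in *adm-2* and 28 in *suvh7-1*, and 35 were within them in *adm-2* and *peg2* but above in *suvh7-1*, against 18 that were within them in *suvh7-1* and *peg2* but above in *adm-2*. The median ratio over the lowered genes was 2.08 in *adm-2*, 2.24 in *suvh7-1* and 0.980 in *peg2*. Triploid libraries are common to all these ratios, so that a low value in them raises each.

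**Figure D3:**
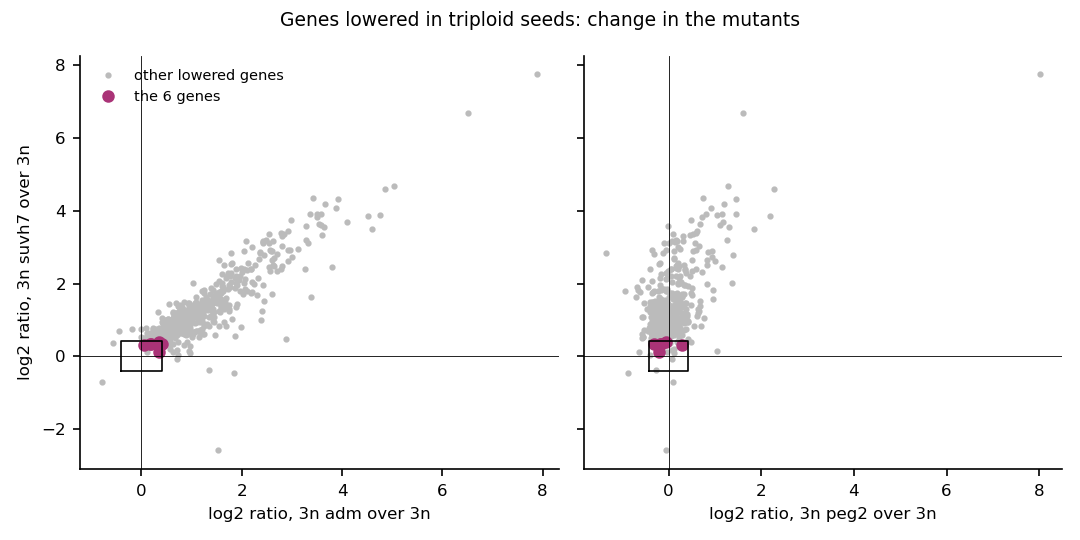
Genes lowered in triploid seeds (496 points), by log2 ratio of triploid *suvh7-1* to triploid seeds (vertical axis) and of triploid *adm-2* (left) or triploid *peg2* to triploid seeds (right). Boxes mark the bounds, 25% below and 33% above triploid seeds, and the 6 genes (large points) sit inside them on the edge of a cloud whose median ratio is 2.08 in *adm-2*, 2.24 in *suvh7-1* and 0.980 in *peg2*.

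Several genes missed only 1 limit, some of them narrowly. The AAA-type ATPase gene AT4G18820 missed the ratio of 0.25 at 0.251, and had ratios of 1.27, 1.26 and 0.829 in *adm-2*, *suvh7-1* and *peg2*. *PR5K*, a receptor kinase gene, and *LHCB2.2*, a light-harvesting gene, missed it at 0.263 and 0.268. In *adm-2*, *PROPEP6* at 1.32 was just inside the upper bound, and *GLN1;5*, a cytosolic glutamine synthetase gene, at 1.38, AT2G36145 at 1.40 and the glutamate receptor gene *GLR3.6* at 1.41 were just outside. In *suvh7-1*, *RKL1* at 1.32 was inside, and AT3G10200 at 1.34 and the cytochrome P450 gene *CYP78A7* at 1.39 were outside. In *peg2*, an invertase or pectin methylesterase inhibitor gene (AT3G62820) at 1.39 and another SAUR-like gene (AT4G34800) at 0.638 were outside, on either side. Of the genes that missed the level limit alone, *RBOHD*, an oxidase of the defence response, was nearest with 4.48 RPKM in diploid seeds. The upper bound in *suvh7-1* alone kept out 35 genes and that in *adm-2* alone 18, against 1 in *peg2*, and the level limit alone kept out 19.

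Relatives of the 6 genes were grouped by their annotated product after the 6 were known, and are described without a test. Each family was taken because it holds a gene of the set, so a lowered gene in each followed from the choice. Over all 13451 genes past the level limit 3.69% were lowered, and the median ratio of triploid to diploid was 0.914. Of 29 genes past the level limit whose annotated product matched a search for receptor-like kinases, 5 were lowered to 0.25 or less. The median ratio of triploid to diploid over the 29 was 0.597. The search did not find every receptor kinase: *PEPR1* and *PR5K*, with ratios of 1.44 and 0.263, are not among the 29. *RLK902*, the gene most similar to *RKL1* (76.4% identity over 1374 bases), averaged 17.6 RPKM in triploid and 96.8 RPKM in diploid seeds, a ratio of 0.183. Unlike *RKL1* it was outside the bounds in *adm-2* and *suvh7-1*, at 1.52 and 1.99 times triploid. In *peg2* it was within them, at 1.02. The other lowered genes of the 29 were *IMK2*, *MRLK* and AT1G75640, with ratios of 0.186, 0.181 and 0.209.

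Among 14 SAUR-like genes past the level limit, 4 were lowered and the median ratio was 0.656. The lowest, AT1G72430, averaged 0.905 RPKM in triploid and 34.5 RPKM in diploid seeds, and had ratios to triploid of 5.15 in *adm-2*, 7.32 in *suvh7-1* and 1.81 in *peg2*. Its diploid level is close to that of AT1G19830, with a different pattern in the mutants. AT4G34800 had 1.15 RPKM in triploid and 7.66 RPKM in diploid seeds, with ratios of 1.08 in both *adm-2* and *suvh7-1*, and was kept out by its ratio in *peg2* alone.

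Of 13 formin genes past the level limit, 2 were lowered, and the median ratio was 0.769. The other, AT5G48360, averaged 26.6 RPKM in triploid and 117.7 RPKM in diploid seeds, and its ratios to triploid were 1.07 in *adm-2*, 1.72 in *suvh7-1* and 0.793 in *peg2*. *FH3* moved the other way, with 48.3 RPKM in triploid and 14.0 RPKM in diploid seeds, a ratio of 3.44.

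*PROPEP6* was the only lowered gene among the elicitor peptide precursors, of which 2 passed the level limit. *PROPEP1*, the precursor with the highest mean in these seeds, averaged 63.8 RPKM in triploid and 45.7 RPKM in diploid seeds, and the receptor gene *PEPR1* 188 RPKM in triploid and 131 RPKM in diploid seeds. Below the limit, *PROPEP4* averaged 4.27 RPKM in triploid and 2.73 RPKM in diploid seeds, *PROPEP5* 2.81 and 1.65 RPKM and *PROPEP2* 2.68 and 0.0525 RPKM in triploid and diploid seeds. *PROPEP3*, *PEP7* and the second receptor gene *PEPR2* were at or below 2.67 RPKM in both.

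Of 23 genes annotated like AT4G18670 as leucine-rich repeat family proteins, 3 were lowered and the median ratio was 0.912. Its closest match, *LRX3*, a gene of a cell wall protein with leucine-rich repeats and an extensin domain (81.2% identity over 1122 bases), averaged 34.8 RPKM in triploid and 24.9 RPKM in diploid seeds. The 3 other genes annotated as glutamate dehydrogenases were at ratios of 0.853 for *GDH1*, 1.26 for *GDH2* and 0.912 for *GDH3*. AT4G24110 had 0 matches of at least 100 bases to any other locus, so it was grouped with them by its annotation alone. For none of the 6 genes did another locus match at 95% identity or more over 100 bases.

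**Figure D4:**
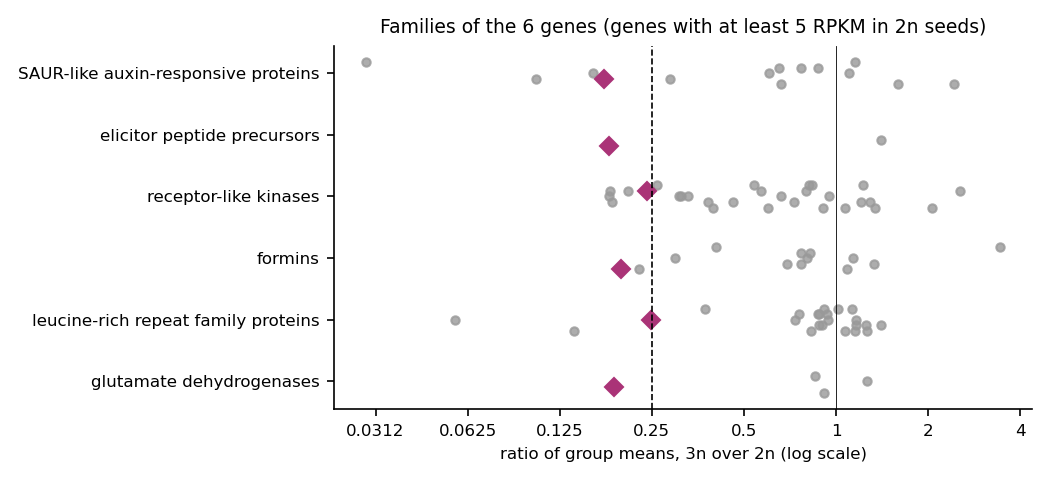
Ratio of triploid to diploid means (horizontal axis, log scale) for the annotated relatives of the 6 genes with at least 5 RPKM in diploid seeds. Diamonds are the 6 genes, grey points their relatives and the dashed line the limit of 0.25. In each family most relatives lie to the right of the dashed line, and medians run from 0.597 for receptor-like kinases to 0.912 for leucine-rich repeat proteins.

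The 6 genes lie in pairs on chromosomes 1, 2 and 4, and none lies on chromosomes 3 and 5, which hold 20.1% and 23.6% of the genes past the level limit. *OSD1* is on chromosome 3. Within 1 Mb of it, where pollen of the triploid crosses may carry Nossen sequence, lay 0 of the 6 genes. The same window held only 293 of the 13451 genes past the level limit, so a count of 0 says little. Of these 293 genes 9 (3.07%) were lowered, against 3.69% of all genes past the limit. The median log2 ratio of triploid to diploid was -0.15 there and -0.13 over all genes past the limit. Within 5 Mb 44 of 996 genes (4.42%) were lowered. Of the 12 direct neighbours of the 6 genes, 6 passed the level limit and 1 of these was lowered. That was *GLN1;5*, 2105 bases before *RKL1* on the same strand, with 1.91 and 2.29 RPKM in triploid *adm-2* seeds, 1.69 and 2.23 in triploid *suvh7-1* seeds, 1.16 and 1.47 in triploid *peg2* seeds, 1.63 and 1.36 in triploid seeds and 9.13 and 6.83 in diploid seeds. Its ratio of 0.197 is below that of *RKL1*, and only its ratio of 1.38 in *adm-2* kept it out. The ratios of the 6 neighbours had a median of 0.943 and reached 1.27.

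*OSD1* itself (AT3G57860) was not among the 6. It had 3.35 and 2.94 RPKM in triploid *adm-2* seeds, 2.57 and 3.03 in triploid *suvh7-1* seeds, 0.864 and 1.67 in triploid *peg2* seeds, 1.91 and 1.38 in triploid seeds and 8.83 and 7.02 in diploid seeds. The diploid libraries were the highest, and the ratios to triploid seeds were 1.86 in *adm-2*, 1.66 in *suvh7-1* and 0.784 in *peg2*. The 3 mutated genes were lower in their mutants than in triploid seeds. *ADM* (AT4G11940) had 0.251 and 0.237 RPKM in triploid *adm-2* seeds against 2.42 and 4.01 in triploid seeds. *SUVH7* had 0.640 and 0.956 in triploid *suvh7-1* seeds against 3.09 and 3.15 in triploid seeds, and *PEG2* (AT1G49290) 0.238 and 0.0808 in triploid *peg2* seeds against 3.54 and 4.10 in triploid seeds.

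Gene lists of other seed tissues and processes, chosen with earlier results known, held none of the 6 genes. In the seed maturation list, which holds storage protein and oil body genes, 15 of 21 genes fell in triploid seeds by limma, and 13 rose in *adm-2*, 12 in *suvh7-1* and 0 in *peg2* relative to triploid seeds. Its summed level was 515 to 526 RPKM in *adm-2*, 473 to 612 in *suvh7-1*, 178 to 233 in *peg2*, 193 to 234 in triploid seeds and 822 to 1147 in diploid seeds. Of 15 embryo genes, 5 fell in triploid seeds, and 0 rose in *adm-2*, 2 in *suvh7-1* and 0 in *peg2*. Their summed level was 265 to 268 RPKM in *adm-2*, 336 to 346 in *suvh7-1*, 251 to 284 in *peg2*, 274 to 301 in triploid seeds and 625 to 650 in diploid seeds. The summed levels of both lists were thus lower in triploid than in diploid seeds, as the 6 genes were, and their part in the levels of the 6 genes was not tested. Of 13 endosperm genes 9 rose and 3 fell in triploid seeds. Relative to triploid seeds, 1 of the 13 fell in *adm-2*, 6 in *suvh7-1* and 0 in *peg2*, and 0 rose in any mutant. Their summed level was 255 to 257 RPKM in *adm-2*, 220 to 228 in *suvh7-1*, 262 to 268 in *peg2*, 281 to 297 in triploid seeds and 149 to 161 in diploid seeds. No gene of the embryo, endosperm or seed coat lists was at 0 in all libraries. The seed coat list had 3 of 16 genes up and sums of 3981 to 4504 RPKM in triploid and 3256 to 3564 RPKM in diploid seeds, and the silique wall list 3 of 9 up with sums of 313 to 378 RPKM in triploid and 215 to 242 RPKM in diploid seeds. The pollen list had 4 up and 2 down of 8 tested, with sums of 36.5 to 39.2 RPKM in triploid and 22.9 to 26.6 RPKM in diploid seeds, and *DUO1* was listed at 0. Of 20 genes of the APC/C and its regulators, the complex that *OSD1* inhibits, 4 fell, of 14 circadian clock genes 0 were called, and of 19 stress genes tested 4 rose and 1 fell in triploid relative to diploid seeds. In the mutants, relative to triploid seeds, 1 silique wall gene, 2 APC/C genes, 2 clock genes and 1 stress gene rose in *adm-2*, 1 pollen gene rose and 2 pollen and 2 stress genes fell in *suvh7-1*, and the seed coat list had 0 calls in all 3. None of the lists had a call in *peg2*. Over all genes tested, 9.94% fell and 9.53% rose in triploid relative to diploid seeds. Relative to triploid seeds 2.67% rose and 0.722% fell in *adm-2*, 2.15% and 2.82% in *suvh7-1*, and 0.0677% and 0.139% in *peg2*. The median log2 fold change over all genes tested was -0.01 between triploid and diploid seeds, 0.10 in *adm-2*, -0.04 in *suvh7-1* and -0.02 in *peg2*.

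By annotated product, *RKL1* was the only kinase among the 6, and the other classes searched held none of them. Kinases made up 3.63% of the lowered genes and 4.94% of the genes past the level limit. Of the 496 lowered genes 5.65% fell in the class of cell wall enzymes and 3.63% in that of seed storage or oil body proteins, against 1.51% and 0.506% of the genes past the level limit. The exon length of the 6 genes had a median of 1800 bases, between 811 and 3333, against 1489 bases over the lowered genes and 1701 bases over the genes past the level limit.

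Summed over genes, RPKM came to 700509 to 743974 per library, 24106 to 25085 genes were above 0, and replicates correlated across 18383 genes with Pearson's r of 0.990 to 0.996. Read counts are not part of the table. From the steps between low values the reads behind a value of the 6 genes were estimated at 86 to 1074 in a triploid library and 692 to 4461 in a diploid library. Between 55.2% and 60.4% of low values were within 0.05 of a whole number of reads, so these are estimates only. The gap between replicates of the 6 genes had a median of 0.33 on the log2 scale in *peg2*, 0.20 in *suvh7-1*, 0.11 in *adm-2*, 0.12 in triploid seeds and 0.09 in diploid seeds, against 0.09, 0.10, 0.07, 0.16 and 0.10 over the genes past the level limit in the same order.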

How the data were processed

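The authors trimmed reads and mapped them to TAIR10 with TopHat 2.0.10, allowing no more than 1 alignment for a read. They deposited RPKM values per gene for 10 libraries in 1 table. The tool, the annotation and the strand setting behind the RPKM values are not given in the sources used here. Groups were taken from the sample titles, and 0 columns belonged to other samples.

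Means of 2 libraries plus 0.1 RPKM were compared with the limits given in the report. All 6 genes that passed them are named, since a set of 30 or fewer was to be named in full. The members and gene lists were chosen with earlier results of these data known. Of the 33602 genes, 32835 matched the TAIR10.1 RefSeq annotation by locus, including all 6.

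Calls across genes were made with limma 3.58.1 in R 4.3.3 (eBayes with trend) on log2(RPKM + 0.1) of 26601 genes above 0 in at least 2 libraries, fitted to all 5 groups, with Benjamini-Hochberg adjustment. A fold change on this scale understates that of low genes. The rank product method, which the authors used, was written anew with 100 permutations and run as an alternative. Both were tested on simulated data. Other alternatives were pseudocounts of 1 and 0.01, size factors, a filter at a mean RPKM of 1, a wider band, a lower level limit, a replicate block and leaving out each library. Deviations of same-numbered libraries correlated at -0.20 to 0.24 over 10 pairs of groups, with 1 over 0.1. The correlations differed in sign, so the main fit did not pair libraries by number. This check cannot show whether libraries shared a batch.

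Python 3.11.15, numpy 2.4.6, pandas 2.3.3 and matplotlib 3.10.9 were used, and similar loci were sought with blastn 2.17.0.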

Additional observations from a re-analysis of the deposited data

How the results depend on the processing

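Which genes made up the set depended on small shifts, because several ratios lie close to a limit. Leaving out each library in turn gave 4 to 10 genes, with 10 without the diploid replicate 2 and 4 without *suvh7-1* replicate 1. AT2G43800 and AT4G24110 were kept in 9 of 10 such sets, AT1G19830 and AT4G18670 in 8, and *RKL1* and *PROPEP6* in 6. Without triploid replicate 2, AT1G19830, *RKL1* and AT4G18670 left, and without *suvh7-1* replicate 1, *RKL1*, *PROPEP6* and AT2G43800 left. A pseudocount of 1 gave 11 genes (4 of the 6 among them), a level limit of 1.1 gave 14 and bounds of 0.67 and 1.5 gave 32 (all 6 among both). A pseudocount of 0.01 gave 6 genes without *PROPEP6* but with AT4G18820, and size factors 7 genes without *RKL1* and AT4G18670, whose ratios then passed 0.25. The log2 ratio of triploid to diploid of the 6 genes moved by more than the spread between replicates in 5 of 42 recomputations and changed sign in 0. Those 5 came from a pseudocount of 1 or from size factors. Leaving out 1 of 2 libraries shifted these ratios by less than that spread, so such settings could not count as moved. A change of sign was made unlikely by the choice of ratios of at most 0.25.

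Within 1 Mb of *OSD1* a pseudocount of 1 gave 1 gene in the set. Without each library in turn it was 0, and the median log2 fold change there ranged between -0.23 and -0.051. Genes lower in triploid than in diploid seeds were 2644 by limma, 1695 with a pseudocount of 1 and 133 by rank product, and 2413 to 2692 with a library left out. Genes higher in *adm-2* than in triploid seeds were 709, 271 and 88 by the same, and 216 to 605 with a library left out (216 and 262 without *adm-2* replicates 1 and 2). In *suvh7-1* they were 571, 278 and 116, and 345 to 597 (345 without *suvh7-1* replicate 2), and in *peg2* 18, 9 and 13, and 5 to 20 (5 without *peg2* replicate 2 and 9 without triploid replicate 1). A replicate block gave 2635, 651, 537 and 13 genes for these 4 counts, and for *peg2* also 37 lower genes became 21. Where 1 library of a group remained, it was assumed to vary like the other groups. With 2 libraries per group, ratios near a limit cannot be placed on either side of it with confidence.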

Other observations

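Bounds of 0.67 and 1.5 times the triploid level added 26 genes to the 6, of which 14 were more than 33% above triploid seeds in *adm-2*, 17 in *suvh7-1* and 1 in *peg2*, and 2 were below 0.75 in a mutant. They were listed after their values were seen and were not tested. By their annotated products, genes of cell wall proteins and enzymes among them included *XYL4*, a beta-xylosidase gene, with 20.5 RPKM in triploid and 114.7 RPKM in diploid seeds, *EXPA4*, an expansin gene, with 5.75 RPKM in triploid and 27.6 RPKM in diploid seeds, and *AGP26*, an arabinogalactan protein gene, with 1.22 RPKM in triploid and 7.69 RPKM in diploid seeds. AT3G62820, annotated as an invertase or pectin methylesterase inhibitor, had 1.29 RPKM in triploid and 8.59 RPKM in diploid seeds. *EXPA4* had ratios to triploid seeds of 0.995 in *adm-2*, 1.46 in *suvh7-1* and 0.677 in *peg2*. In the same order the ratios were 1.26, 1.41 and 0.876 for *XYL4* and 1.47, 1.40 and 1.17 for *AGP26*. For AT3G62820 they were 1.26, 1.31 and 1.39.

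Genes annotated as regulators among the 26 included *ULT1*, a developmental regulator of meristems, with 18.7 RPKM in triploid and 76.0 RPKM in diploid seeds, and the homeobox genes *HB51* with 1.80 RPKM in triploid and 7.60 RPKM in diploid seeds and *HB-7* with 4.21 RPKM in triploid and 17.4 RPKM in diploid seeds. The cytochrome P450 genes were *CYP88A3*, which encodes an enzyme of gibberellin synthesis, with 11.8 RPKM in triploid and 53.3 RPKM in diploid seeds, and *CYP78A7* with 2.01 RPKM in triploid and 13.4 RPKM in diploid seeds. Ratios to triploid seeds in *adm-2* and *suvh7-1* were 1.49 and 1.42 for *ULT1*, 1.48 and 1.30 for *HB51* and 1.47 and 1.25 for *HB-7*. For *CYP88A3* they were 1.40 and 1.35, and for *CYP78A7* 1.29 and 1.39. Each of these genes was thus more than 33% above triploid seeds in at least 1 mutant.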
